A study of Mus musculus with 2 samples.

Results

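Adventitial fibroblast-like cells were chosen by marker genes from single-cell RNA sequencing of the mouse lung at postnatal day 14. A cell was a member if it had at least 3 UMIs (unique molecular identifiers, each counted as 1 RNA molecule) of Dcn and a UMI of at least 4 of the 9 genes Serpinf1, Clec3b, Cpz, Col14a1, Igfbp6, Mfap5, Pi16, Entpd2 and Ccl11. It was left out if it had a UMI of more than 1 of C1qtnf3, Adh7, Bdkrb1, Bmp7, Faim2 and Rbp4, or any UMI of Msln, Upk3b, Epcam or Ptprc. By this rule 909 of 23349 cells were members, 363 of 10999 in the control library and 546 of 12350 in the CKO library. Adventitial fibroblasts lie in the connective tissue sheath around airways and larger vessels of the lung. They make fibrillar collagens, proteoglycans and elastic fibre proteins, and are known as a niche for immune cells and a source of growth factors. Hhip, the deleted gene of the study, encodes a membrane protein that binds Hedgehog ligands and limits signalling through the receptor Ptch1 to the Gli transcription factors.

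Both mice carried 1 Gli1creERT allele and 2 Hhipflox alleles, so the control differed from the Gli1^HHIPCKO mouse (CKO) by the injections it received. Tamoxifen was injected once a day over the first days after birth in the CKO mouse and oil in the control mouse, and each library came from 1 mouse. The Cre recombinase is made only in cells that express Gli1, so deletion of Hhip was possible in cells of that lineage and not in the other cells of the lung. Live stromal cells and epithelial cells were sorted and mixed before loading. The labels name a 3′ version 2 kit and the methods a 5′ version 2 kit, and the files do not settle which was used. With 1 mouse per group no test was made, and each interval below is a 95% interval for counting error alone. For log2 ratios it takes each UMI as independent, so spread between cells is not covered. Deletion, tamoxifen, mouse and sex cannot be told apart: members had 0 UMIs of Xist in control and 811 in CKO, and 86 and 0 of the Y-linked gene Ddx3y. The libraries shared 193 cell barcodes, of which 1 was a member in both.

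Hhip, the targeted gene, was lower in CKO members and not absent. UMIs of all members were summed per library and scaled to UMIs per 1000000 of that sum (CPM), which gave 111 CPM in control and 52.4 CPM in CKO members (176 and 115 UMIs). The log2 ratio of CKO over control was -1.08, with a 95% interval of -1.44 to -0.74, and ran from -1.51 to -0.84 over alternative ways to choose, scale or thin the members. Hhip was found in 17.6% and 12.8% of members, and in 12% and 7.69% after each cell was thinned to 2000 UMIs, with 38 and 91 shallower members left out. In cells gated as alveolar type 2 (AT2; an Epcam UMI and at least 20 UMIs of Sftpc), which should lack the gene, 8.56% and 6.47% of cells had a UMI at median depths of 5392 and 6217 UMIs. The members' median depths were 3866 and 3607 UMIs. Other stromal cells, meaning all cells without Epcam or Ptprc that were not members, held 543 CPM in control and 148 CPM in CKO, a log2 ratio of -1.87. They were set apart from epithelial and immune cells by these genes alone, and RNA of such cells was present. Epithelial markers summed to 65651 and 43436 CPM there in control and CKO, and immune markers to 4965 and 4040 CPM. The part of this RNA in the ratios of other stromal cells, here and below, was not tested. How much of the members' Hhip was free RNA from other cells was not tested. Which exon is flanked by loxP sites is not stated in the sources used here, so the UMIs may lie outside the deleted part. Hhip lies on chr8:79965851-80058006 of mm10.

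Members made up 4.68% of stromal cells in control (4.22% to 5.17%) and 6.22% in CKO (5.73% to 6.75%). The share was larger in the CKO library, and whether mice of a group differ by as much was not measured. The members had 1689 and 1666 genes per cell at the median. Depth was lower in CKO: the 25th percentile was 2717 and 2335 UMIs, and 38 of 363 and 91 of 546 members had fewer than 2000. Just inside the Dcn minimum, 39 control and 36 CKO members had exactly 3 UMIs, and just outside it 35 and 38 cells that met every other condition had 2. With 4 of the 9 markers there were 40 and 59 members, and 14 and 29 cells were left out with 3. Just outside the condition on the 6 exclusion genes, 110 control and 79 CKO cells had UMIs of 2 of them. Rbp4, a retinol carrier, was the exclusion gene that members carried most, with a UMI in 57.6% and 45.2% of members. A rule with none of the 6 genes allowed kept 137 and 267 cells. Cells with a UMI of Msln or Upk3b, markers of mesothelium, that met every other condition numbered 68 and 73.

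The markers that chose the cells describe them and support nothing further. Clec3b, a plasminogen-binding protein, had a UMI in 98.3% and 99.5% of control and CKO members, and Mfap5, a microfibril protein, in 92.3% and 95.4%. Pi16, a peptidase inhibitor of the outer adventitia, was found in 34.2% and 46.5%, and the chemokine gene Ccl11 in 35.5% and 47.8%. Thinned to 2000 UMIs, Pi16 remained in 24.3% and 37.4% of members (intervals 19.7% to 29.3% and 32.9% to 42%), and in 0.623% and 0.722% of AT2 cells. Since Pi16 was part of the rule, the share describes the members, and nothing is drawn from its difference between the libraries. Outside the rule, Scara5, a ferritin receptor of this cell type, was found in 37.5% and 38.1% of members. After thinning it was in 20.9% and 25.1% of members, beside 1.24% and 1.31% of unthinned AT2 cells. Cd34, a surface sialomucin, was found in 67.5% and 75.6% of members. After thinning it was in 50.8% and 57.4% of members, beside 5.72% and 8.26% of unthinned AT2 cells. Here and below, unthinned AT2 cells are deeper than thinned members, so these shares are not at equal depth. Dpp4 and Thy1, surface markers often used to sort such fibroblasts, were near 0, with 4 and 13 UMIs and 8 and 15 UMIs. Of the genes outside the rule, Scara5 and Cd34 therefore fitted the label, and Dpp4 and Thy1 were close to absent.

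Members differed from the other stromal cells in genes that the rule did not name. Of 8877 genes with enough UMIs, 337 (3.8%) were at least 2-fold higher in members in both libraries and 504 (5.68%) at least 2-fold lower, with no reading beyond description since the same cells were chosen by their RNA. Among the strongest were Lsamp, a cell adhesion molecule (log2 of members over other stromal cells 4.74 and 5.53 in control and CKO), and Ccl8, a chemokine (6.69 and 6.14). Lum, which encodes the collagen-binding proteoglycan lumican, stood 4.38 and 4.06 above, and Col1a1 3.50 and 3.43. Scara5 (4.73 and 4.35), the growth factor receptor gene Ntrk2 (3.35 and 4.72) and the secreted Wnt inhibitor gene Sfrp4 (4.26 and 3.97) were also among the 15 genes most raised. Collagens were among the 10 genes with the most UMIs in these cells: Col3a1 held 48240 CPM in control and 43082 CPM in CKO members and Col1a1 38104 and 33175 CPM. Gsn, an actin-severing protein, had 17288 and 22572 CPM, and Sparc, a collagen chaperone and matrix glycoprotein, with 13774 and 12023 CPM.

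RNA of other cell types was present among the members. Of 10 epithelial markers, 9 had UMIs in both libraries and summed to 14765 and 14552 CPM, most of it Sftpc (13524 and 13008 CPM), the surfactant gene of AT2 cells, which had a UMI in 99.4% and 95.2% of members. The same markers summed to 309079 and 276376 CPM in the AT2 gate. Among members they were concentrated in cluster 7 of the clusters described below. Its 47 cells held 167541 CPM of these markers, and the other members held 1629 CPM. Haemoglobin and other red cell genes summed to 5325 and 5148 CPM, led by Hbb-bs, and most of these totals came from 3 of the clusters of members described below, clusters 1, 3 and 7. Cluster 1 held 24364 CPM in control and 3942 CPM in CKO, cluster 3 2458 and 9491 CPM, and cluster 7 148 and 29720 CPM. The log2 ratio of Hbb-bs was -0.04, and ran from -2.24 without clusters 3, 7 and 8 to 3.65 with no exclusion gene allowed in members. Immune markers, led by Lyz2, a lysozyme also made by AT2 cells, summed to 821 and 1502 CPM with Ptprc at 0 by the rule. Of the mesothelial markers Lrrn4 was at 0, as were Msln and Upk3b by the rule, and the same held for 4 of the Schwann cell markers, Sox10, Gfra3, Cdh19 and Kcna1, and 4 of the chondrocyte markers, Acan, Col2a1, Col9a1 and Matn3. Endothelial markers summed to 221 and 212 CPM, led by Ramp2, a receptor activity protein. Pericyte markers summed to 643 and 791 CPM, led by Postn, and vascular smooth muscle markers to 11960 and 8139 CPM, led by Eln, which fibroblasts also make. The part of free RNA and of joined cells in the results was not tested, and no doublet caller was run.

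Clustering of the 909 members alone, on genes outside the rule, gave 8 clusters, and each held cells of both libraries. Cluster 1, with 89 control and 155 CKO cells, was led by Ly6a and Ly6c1, surface proteins of progenitor-like fibroblasts, and by the complement gene C3. Cluster 4, with 52 and 68 cells, was led by Itgbl1, Matn2 and Cpe, and cluster 6, with 31 and 47 cells, by the immediate early genes Socs3, Fos and Junb. Cluster 2, with 69 and 85 cells, had weak leading genes (Scgb1a1, Lbp and Gm15851). Scgb1a1 is a secretoglobin of club cells, with 602 CPM in cluster 2 and 104 CPM in the other members. Within cluster 2 it had 1109 CPM in control and 167 CPM in CKO cells. It had a UMI in 31.8% of cells of cluster 2 and 25.8% of the other members. Cluster 3, with 59 and 93 cells, was led by Scube2, Col13a1 and Nebl, and the alveolar fibroblast markers summed to 5848 CPM there against 1122 CPM in the other members. Cluster 5, with 33 and 59 cells and the highest median depth (6816 UMIs), was led by Lgr6, Agt and Egfem1. Its 10 leading genes also held the contractile genes Actg2 and Myh11, and smooth muscle contractile genes summed to 7769 CPM in its control and 7887 CPM in its CKO cells, against 552 to 3150 CPM in the other clusters, with myofibroblast markers at 4254 CPM against 1134 CPM in the other members. Cluster 7, with 23 and 24 cells, was led by the AT2 genes Lamp3, Pla2g1b and Lcn2, with Sftpc at 153373 CPM. Cluster 8, with 7 and 15 cells, was led by the pericyte gene Cox4i2 with Gucy1b1 and Pdzd2. Members of clusters 3, 7 and 8 carried a marker list of another cell type, red cell genes aside, with at least 50 UMIs and at 4 times the other members' level or more, and the alternative that leaves out clusters leaves out these 3. Cluster 5 stayed in, since its myofibroblast markers and its vascular smooth muscle markers (20053 CPM against 7666 CPM) were raised by less than 4 times, as did cluster 6, where chondrocyte markers were at 50.5 CPM against 4.05 CPM and mesothelial markers at 37.9 against 8.96 CPM, on fewer than 50 UMIs.

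Members with and without Pi16 were compared at 2000 UMIs per cell, 79 with and 246 without in control and 170 and 285 in CKO. Of 2460 genes, 7 were at least 2-fold higher with Pi16 in both libraries and 13 at least 2-fold lower. The higher genes were Ly6c1 (log2 of Pi16 members over the others 3.42 and 2.24 in control and CKO), Ly6a (2.43 and 2.07), Fbln2, Lbp, Itgbl1, Enpp3 and the rule gene Entpd2. Ly6a and Ly6c1 encode glycolipid-anchored surface proteins, and Fbln2 an extracellular matrix protein. The lower genes were led by Scube2 (-2.75 and -2.50), Spon1 (-2.37 and -1.77) and Itga8 (-1.94 and -1.55), which were among the 10 leading genes of cluster 3. Enpp3 and Spon1 were named after their values were seen. Since Pi16 and Entpd2 were part of the rule, this split describes the members and supports nothing further. Between libraries, the CKO over control log2 ratio of Cdkn1a was 1.65 in Pi16 members and 1.89 in the others, and that of Igf1 -0.03 and 0.63. These ratios come from thinned cells with fewer UMIs and are given without intervals. Whether they differ between Pi16 members and the others was not tested.

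Across all genes, CKO and control members were close. Of 7966 genes considered (at least 50 UMIs over both libraries and a UMI in at least 5% of members of either, rule genes left out), 187 (2.35%) were at least 2-fold higher in CKO and 69 (0.866%) at least 2-fold lower. The median log2 ratio was 0.05, and the middle 90% of genes lay between -0.59 and 0.76. The whole interval lay past 2-fold for 28 of the higher and 12 of the lower genes. In other stromal cells 166 of the 187 higher genes also lay above 0 and 65 of the 69 lower genes below 0. Past 2-fold in the same direction were 47 and 13 of them there, and 50 and 12 in the AT2 gate. Many of the shifts were thus not limited to members. X-linked genes numbered 246, of which 8 were higher and 2 lower, and the 87 ribosomal protein genes had 0 called, median 0.05. Of 63 named genes called higher or lower, 28 were past 2-fold under each of 12 alternative ways to choose, scale or thin the members. The others fell short under at least 1, among them Hhip and Ptch1 (past 2-fold in 10 and 10 of 12), C7, Tgfbr2, Dbp, Omd and Lcn2 (8 of 12 each), Clu, Cdh4, Ces1d, Ndrg1 and Hif3a (9 each), Lyz2 (7), Fbn2, Ier3, Nr1d2 and Ntf3 (10 each). Igf1r, Il6ra, Inmt, Per3, Tef, Pdk4, Gdf10, Enpp2, Fkbp5, Mt2, Hgf, Wnt2, Scube2, Cldn1 and Alad fell short under 1 alternative each. The shares of 2.35% higher and 0.866% lower stand as background to the counts of each list below, which are followed by their range over the alternatives. The lists were chosen with earlier results of these data known. A count or median above the background therefore describes the list and is no evidence of enrichment. For a gene that moved by over 1.5-fold or crossed 2-fold under an alternative, the lowest and highest alternative log2 ratios follow the interval, or the values that moved are given (Alad). Higher genes made up 73% of all called genes. With the median log2 ratio set to 0 the share was 64.9% (157 higher and 85 lower), and with no minimum of UMIs 55.1%. With at least 200 UMIs required, the counts were 51 higher and 7 lower of 2995 genes, so most called genes were of low abundance.

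**Figure D1:**
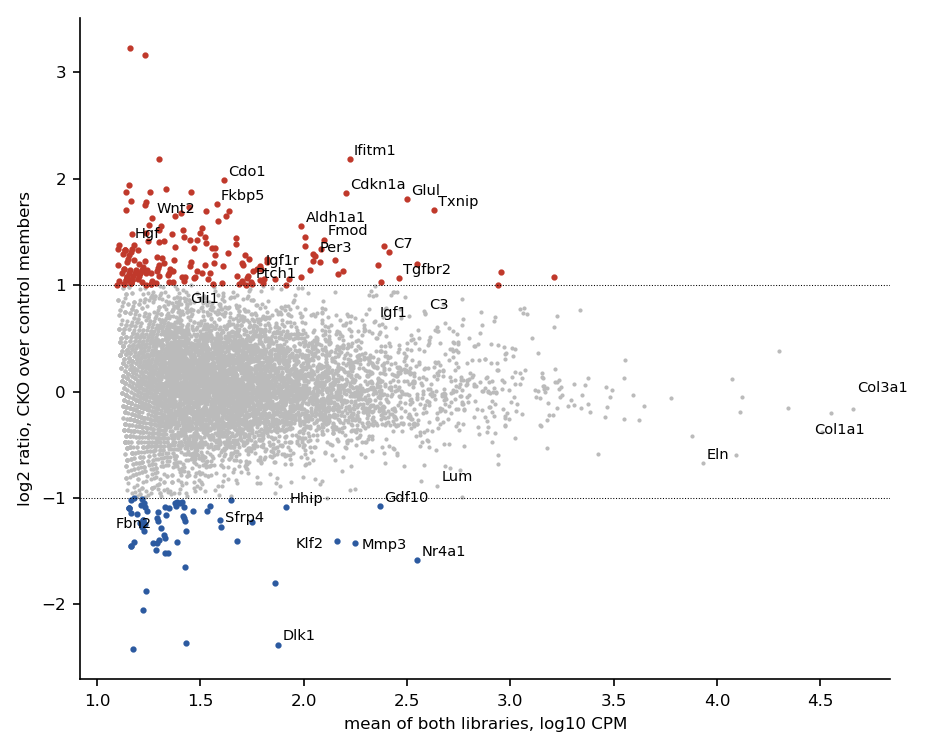
Log2 ratio of CKO over control members against mean abundance for each gene considered, without rule genes and sex-linked genes. Red and blue points were at least 2-fold higher or lower in CKO, and dotted lines mark 2-fold.

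The list of fibrillar and network collagens had 0 higher and 0 lower by at least 2-fold of 15 considered, median -0.16 (alternatives 0 higher, 0 to 2 lower, median -0.27 to -0.15), beside a median of 0.05 over all genes considered. As reported no collagen passed 2-fold, 12 of 15 lay below 0 and 3 above, among these Col12a1 (0.47) and Col16a1 (0.25), which bind fibrils. Col1a1, the first chain of type I collagen, had 38104 CPM in control and 33175 CPM in CKO members (log2 ratio -0.20, interval -0.22 to -0.18), Col1a2, its partner chain, 23097 and 20787 CPM (log2 ratio -0.15, interval -0.17 to -0.13), and Col3a1 had a log2 ratio of -0.16, interval -0.18 to -0.15. These 3 shifts were below 0 and small. Their narrow intervals cover the counting of UMIs and not the spread between cells, so they overstate how closely the shifts are known. In control, the list summed to 200759 CPM in cluster 1 and 68335 CPM in cluster 6. Col15a1, a basement membrane collagen that also marks adventitial cells, fell further, from 780 to 393 CPM (log2 ratio -0.99, interval -1.11 to -0.86, alternatives -1.03 to -0.93). Among collagen processing enzymes and chaperones there were 0 higher and 0 lower by at least 2-fold of 15 considered, median -0.15 (alternatives 0 to 1 higher, 0 lower, median -0.25 to -0.13). Serpinh1, the collagen chaperone of the endoplasmic reticulum, went from 3190 to 2118 CPM (log2 ratio -0.59, interval -0.65 to -0.53). In other stromal cells the log2 ratio of Col1a1 was -0.14 and that of Col3a1 -0.41, and the difference from members was not tested.

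Small leucine-rich proteoglycans bind collagen fibrils and set their width. The list had 2 higher and 0 lower by at least 2-fold of 9 considered, median 0.50 (alternatives 1 to 3 higher, 0 to 1 lower, median 0.26 to 0.53), where 2.35% of all genes considered were called higher and 0.866% lower. As reported it had 7 above 0 and 2 below. Fmod (fibromodulin) rose from 67.7 to 183 CPM (log2 ratio 1.43, interval 1.12 to 1.75). It was found in 15.7% and 32.6% of members, with 10.5% and 19.6% after thinning and 1.35% and 1.92% of unthinned AT2 cells. Omd (osteomodulin) rose from 22.1 to 48.3 CPM (log2 ratio 1.11, interval 0.56 to 1.72, alternatives 0.93 to 1.34) and Prelp from 217 to 403 CPM (log2 ratio 0.89, interval 0.71 to 1.08, alternatives 0.71 to 1.00). Lum was lower, short of 2-fold, from 576 to 312 CPM (log2 ratio -0.88, interval -1.03 to -0.74, alternatives -1.07 to -0.81). Fmod was also higher in the gate of Dcn-positive cells with at least 2 exclusion genes, the Adh7, Bdkrb1 and C1qtnf3 type, at a log2 ratio of 1.57, and near level in other stromal cells (0.37). Elastic fibre genes had 0 higher and 1 lower by at least 2-fold of 15 considered, median -0.08 (alternatives 0 to 1 higher, 0 to 1 lower, median -0.21 to 0.07). Eln (elastin) fell from 10451 to 6571 CPM (log2 ratio -0.67, interval -0.70 to -0.64), while in other stromal cells it stood at 12268 and 13346 CPM. Fbn2, a microfibril gene of development, fell from 46 to 26 UMIs (log2 ratio -1.28, interval -2.05 to -0.57, alternatives -1.37 to -0.80), and Fbn1, the main microfibril gene, held at 1350 and 1483 CPM.

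Proteases and their inhibitors had 0 higher and 1 lower by at least 2-fold of 20 considered, median 0.04 (alternatives 0 to 1 higher, 1 to 2 lower, median -0.04 to 0.08). The lower gene was Mmp3 (stromelysin), which fell from 258 to 96.2 CPM (log2 ratio -1.42, interval -1.67 to -1.18). It was found in 22.9% and 12.6% of members, with 19.1% and 10.3% after thinning and 0.816% and 0.192% of unthinned AT2 cells. Mmp3 was at 11.7 and 2.24 CPM in other stromal cells, below the members' level in both libraries. Complement genes had 1 higher and 1 lower by at least 2-fold of 11 considered, median 0.40 (alternatives 0 to 1 higher, 0 to 1 lower, median 0.29 to 0.43). C7, a terminal component, rose from 149 to 368 CPM (log2 ratio 1.31, interval 1.10 to 1.52, alternatives 0.67 to 1.55), and with no exclusion gene allowed in members its log2 ratio was 0.67. C3, the central component, rose from 289 to 481 CPM (log2 ratio 0.73, interval 0.58 to 0.90), and Clu, a chaperone that inhibits complement, fell from 76 to 50 UMIs (log2 ratio -1.07, interval -1.62 to -0.54, alternatives -2.39 to -0.78). AT2 cells held 7.52 and 43.3 CPM of C7 (log2 ratio 2.52), so UMIs of C7 were more frequent in CKO there too, and their part in the members' rise was not tested. Chemokines and cytokines had 1 higher and 0 lower by at least 2-fold of 8 considered, median 0.31 (alternatives 0 to 1 higher, 0 to 1 lower, median 0.04 to 0.66). Cxcl12, a chemokine that retains leukocytes and progenitors, had 246 CPM in control and 403 CPM in CKO members (log2 ratio 0.71, interval 0.54 to 0.89), and the called gene was the alarmin Tslp (16 and 51 UMIs). Ccl2, a monocyte chemokine, was found with 9 UMIs in control and 0 in CKO members.

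Genes of the Hedgehog pathway, which Hhip limits, had 1 higher and 1 lower by at least 2-fold of 13 considered, median -0.03 (alternatives 0 to 1 higher, 0 to 2 lower, median -0.10 to 0.12). The lower gene was Hhip itself, the targeted gene. The higher gene was Ptch1, the receptor and a target of the pathway, at 36.7 CPM in control and 75.2 CPM in CKO members (log2 ratio 1.03, interval 0.60 to 1.49, alternatives 0.88 to 1.19). Gli1, the transcription factor whose level follows pathway activity and whose locus carries the Cre, had 31 and 75 UMIs (log2 ratio 0.79, interval 0.18 to 1.46). Both targets were thus higher in CKO members, Ptch1 past 2-fold and Gli1 short of it. Smo, the signal transducer, had 65.8 and 53.8 CPM and the factors Gli2 and Gli3 45 and 52 UMIs and 47 and 80 UMIs, with log2 ratios of -0.29, -0.27 and 0.29. Thinned to 2000 UMIs, Smo was at -1.11, past 2-fold. In other stromal cells the log2 ratio was 0.93 for Ptch1 and 1.58 for Gli1. Members held more Gli1 than other stromal cells in both libraries, 19.6 against 5.56 CPM in control and 34.2 against 16.7 CPM in CKO.

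Insulin-like growth factor genes had 1 higher and 0 lower by at least 2-fold of 11 considered, median 0.15 (alternatives 0 to 1 higher, 0 to 1 lower, median 0.00 to 0.18). Igf1, a secreted growth factor, had 172 CPM in control and 272 CPM in CKO members. It was found in 40.8% and 48.7% of members, with 25.5% and 34.5% after thinning and 5.5% and 14.2% of unthinned AT2 cells. Its log2 ratio was 0.66 (0.45 to 0.87), while other stromal cells held 132 and 490 CPM in control and CKO (log2 ratio 1.89). Control members thus held more Igf1 than control stromal cells at large, and CKO members less. Igf1r, its receptor, rose from 38.6 to 86.1 CPM in members (log2 ratio 1.15, interval 0.74 to 1.60, alternatives 0.63 to 1.32). The binding protein gene Igfbp3 rose from 424 to 630 CPM (log2 ratio 0.57, interval 0.44 to 0.71) while it fell in other stromal cells (-1.18), and Igfbp4 and Igfbp7, the most abundant binding protein genes, stayed at 2854 and 2933 CPM and 6103 and 5866 CPM. The members' Igf1 therefore moved in the same direction as that of other stromal cells by a smaller amount, and the difference was not tested. The other stromal cells also differed in make-up: the alveolar fibroblast gate given below was 6.8% of stromal cells in control and 20.1% in CKO. Its part in their ratio was not tested.

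Each of 3 further signalling lists held 1 higher and 1 lower gene. Wnt genes had 1 higher and 1 lower by at least 2-fold of 14 considered, median 0.24 (alternatives 0 to 2 higher, 1 lower, median 0.10 to 0.34). The ligand gene Wnt2 rose from 14 to 62 UMIs (log2 ratio 1.64, interval 0.82 to 2.63, alternatives 0.85 to 2.52), and without clusters 3, 7 and 8 its log2 ratio was 0.85. Sfrp4 fell from 89 to 51 UMIs (log2 ratio -1.27, interval -1.80 to -0.76). Genes of the TGF-beta and BMP families had 1 higher and 1 lower by at least 2-fold of 22 considered, median 0.09 (alternatives 0 to 1 higher, 0 to 1 lower, median -0.02 to 0.14): Tgfbr2, the type II TGF-beta receptor, rose from 187 to 391 CPM (log2 ratio 1.06, interval 0.87 to 1.26, alternatives 0.74 to 1.19), and Gdf10, a BMP-like ligand, fell from 319 to 151 CPM (log2 ratio -1.08, interval -1.28 to -0.88, alternatives -1.23 to -0.81). Growth factors and receptors had 1 higher and 1 lower by at least 2-fold of 13 considered, median 0.05 (alternatives 0 to 1 higher, 0 to 1 lower, median -0.13 to 0.05). Hgf, hepatocyte growth factor, went from 19 to 75 UMIs (log2 ratio 1.48, interval 0.77 to 2.32, alternatives 0.63 to 2.09) and stood at a log2 ratio of 0.37 in other stromal cells. Ntf3, a neurotrophin, went from 63 to 40 UMIs (log2 ratio -1.12, interval -1.74 to -0.53, alternatives -1.38 to -0.45). With no exclusion gene allowed in members, Hgf and Ntf3 fell short of 2-fold (0.63 and -0.45). Pdgfra, the receptor that marks most lung fibroblasts, had 290 CPM in control and 399 CPM in CKO members, short of 2-fold.

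**Figure D2:**
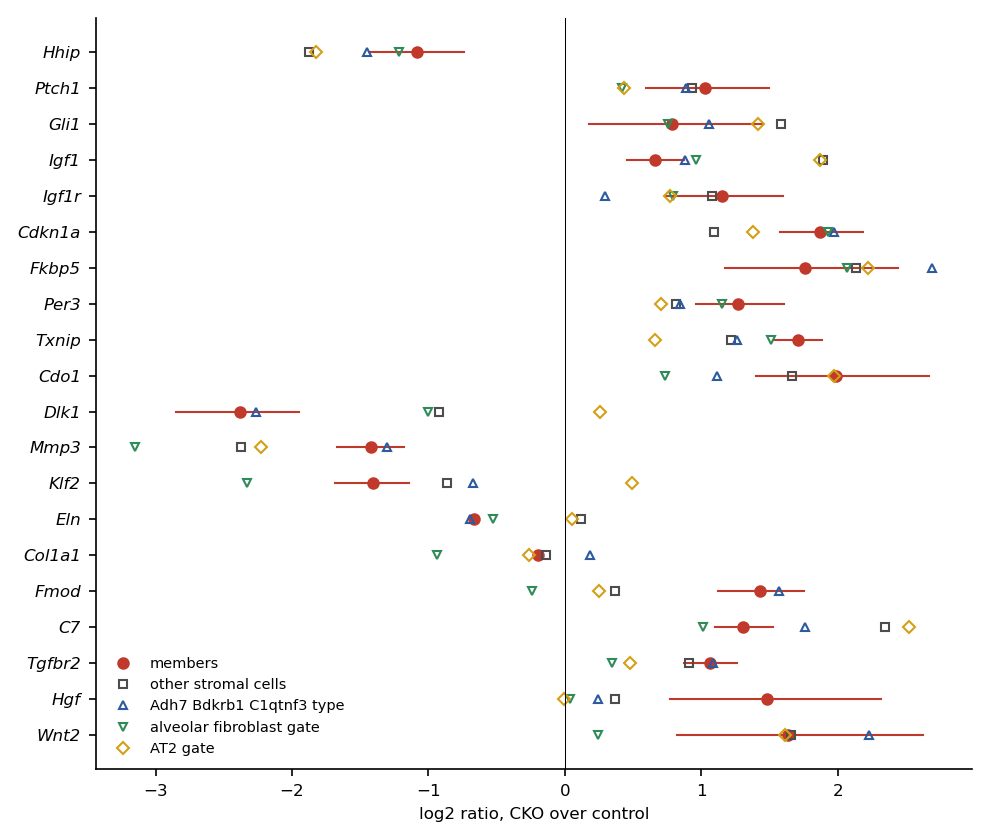
Log2 ratio of CKO over control for named genes in members (red, with 95% counting intervals) and in the comparison gates of the same 2 libraries.

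Cdkn1a, which encodes the cell cycle inhibitor p21, was among the most raised genes of CKO members. It had 68.9 CPM in control and 252 CPM in CKO members (109 and 554 UMIs, log2 ratio 1.87, interval 1.57 to 2.18). It was found in 15.7% and 34.4% of members, with 8.92% and 24.8% after thinning and 26.9% and 59.4% of unthinned AT2 cells. Its log2 ratio was 1.09 in other stromal cells and 1.38 in the AT2 gate, so the rise was not limited to members. Cyclin-dependent kinase inhibitors and p53 targets as a list had 2 higher and 0 lower by at least 2-fold of 10 considered, median 0.21 (alternatives 2 higher, 0 lower, median 0.16 to 0.42), and the other called gene was the stress sensor Sesn1 (56.9 and 147 CPM, log2 ratio 1.37, interval 1.03 to 1.72). Cdkn1b (p27) had a log2 ratio of 0.32, Ypel3 of 0.46 and Ccng1, a p53 target, of 0.10. Cdkn2a (p16) had 1 UMI in control and 0 in CKO members. Cell cycle genes were rare: the 14 genes summed to 230 and 90.7 CPM, and only Pcna was considered (log2 ratio -0.05, interval -0.66 to 0.57, alternatives -0.10 to 0.82). Cluster 3 carried most of it, at 997 CPM in control and 271 CPM in CKO cells, and the part of that cluster in the fall was not tested. Mki67, a proliferation marker, had 30 and 9 UMIs in members. This was below the minimum for genes considered, so no ratio is read from it. It was found in 2.48% and 0.366% of members, with 1.85% and 0.22% after thinning and 2.24% and 0.896% of unthinned AT2 cells.

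Immediate early genes, which respond to handling and signals within minutes, had 1 higher and 2 lower by at least 2-fold of 17 considered, median 0.18 (alternatives 0 to 2 higher, 2 lower, median 0.13 to 0.35), the higher gene being Ier3 (log2 ratio 1.06, interval 0.66 to 1.49, alternatives 0.91 to 1.25). Nr4a1, a nuclear receptor, fell from 531 to 177 CPM (log2 ratio -1.59, interval -1.76 to -1.41). It was found in 57.3% and 29.3% of members, with 49.2% and 22% after thinning and 21.9% and 33.8% of unthinned AT2 cells. Klf2, a Kruppel-like factor, fell from 212 to 79.8 CPM (log2 ratio -1.41, interval -1.68 to -1.14), while in the AT2 gate Nr4a1 and Klf2 had log2 ratios of 0.39 and 0.49. Fos, an AP-1 subunit, went up from 643 to 1020 CPM, so the list did not move as 1 group. Genes of IL6 family signalling had 2 higher and 0 lower by at least 2-fold of 10 considered, median 0.57 (alternatives 1 to 2 higher, 0 lower, median 0.45 to 0.60), where 2.35% of all genes considered were called higher. The receptor gene Il6ra rose from 25.3 to 69.3 CPM (log2 ratio 1.44, interval 0.94 to 1.99, alternatives 0.93 to 1.45) and Cebpd, a target factor, from 1291 to 1961 CPM (log2 ratio 0.60, interval 0.53 to 0.68). Lcn2, the other called gene (log2 ratio 1.13, interval 0.69 to 1.60, alternatives 0.55 to 2.35), led cluster 7 together with AT2 genes. It was found in 5.23% and 5.68% of members, with 3.69% and 4.84% after thinning and 88% and 96% of unthinned AT2 cells. Interferon and MHC class I genes had 1 higher and 0 lower by at least 2-fold of 10 considered, median 0.05 (alternatives 1 higher, 0 to 1 lower, median -0.03 to 0.10): Ifitm1, a membrane protein that restricts viral entry, rose from 60.1 to 274 CPM (log2 ratio 2.18, interval 1.88 to 2.52) with a log2 ratio of -0.12 in other stromal cells. B2m, the light chain of MHC class I, had 195 and 215 CPM (log2 ratio 0.14, interval -0.07 to 0.35).

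Glucocorticoid targets and metallothioneins had 4 higher and 0 lower by at least 2-fold of 12 considered, median 0.81 (alternatives 2 to 5 higher, 0 lower, median 0.57 to 0.87), the highest median of the pathway lists as reported, where 2.35% of all genes considered were called higher. With no exclusion gene allowed in members it was 0.57, below the circadian clock at 0.73 and chemokines at 0.66. Fkbp5, a chaperone of steroid receptors, rose from 27 to 129 UMIs (log2 ratio 1.76, interval 1.18 to 2.44, alternatives 0.98 to 1.87), with log2 ratios of 2.13 in other stromal cells and 2.22 in the AT2 gate. Pdk4, a kinase that blocks pyruvate use, rose from 28 to 108 UMIs (log2 ratio 1.46, interval 0.86 to 2.13, alternatives 0.91 to 1.59), and Mt2, a metallothionein, from 32 to 114 UMIs (log2 ratio 1.34, interval 0.78 to 1.97, alternatives 0.51 to 3.37). Hif3a, a hypoxia-inducible factor subunit, rose from 14 to 42 UMIs (log2 ratio 1.08, interval 0.21 to 2.10, alternatives 0.77 to 1.43). Tsc22d3, a leucine zipper factor, had 350 CPM in control and 532 CPM in CKO members (log2 ratio 0.61, interval 0.46 to 0.75), whereas Zbtb16 stood level (log2 ratio -0.02, interval -0.42 to 0.40). With no exclusion gene allowed in members, the log2 ratio of Fkbp5 was 0.98 and that of Mt2 0.51, while after thinning Mt2 was at 3.37. The list's median was 0.88 in other stromal cells and 0.90 in the AT2 gate, above 0 in both.

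Circadian clock genes, of which each library sampled 1 time of day, had 5 higher and 0 lower by at least 2-fold of 14 considered, median 0.41 (alternatives 2 to 6 higher, 0 lower, median 0.36 to 0.73), where 2.35% and 0.866% of all genes considered were called higher and lower. The 5 higher genes were the repressors Per3 (66.4 and 161 CPM, log2 ratio 1.27, interval 0.96 to 1.60, alternatives 0.87 to 1.47), Nr1d1 (18 and 80 UMIs, log2 ratio 1.65, interval 0.93 to 2.51) and Nr1d2 (34 and 116 UMIs, log2 ratio 1.28, interval 0.74 to 1.89, alternatives 0.93 to 1.48), and the output factors Dbp (51 and 143 UMIs, log2 ratio 1.01, interval 0.54 to 1.51, alternatives 0.94 to 1.31) and Tef (54 and 158 UMIs, log2 ratio 1.07, interval 0.62 to 1.55, alternatives 0.74 to 1.27). The activators Arntl and Npas2 lay below 0 (log2 ratio -0.25, interval -0.93 to 0.45, alternatives -1.13 to 0.00 and log2 ratio -0.62, interval -1.29 to 0.05), and the activator Clock above 0 (log2 ratio 0.27, interval -0.18 to 0.74, alternatives -0.36 to 0.39), each with an interval that took in 0. The repressors Cry2 (log2 ratio 0.99, interval 0.55 to 1.46, alternatives 0.59 to 1.12), Per1 (0.38), Per2 (0.19) and Cry1 (log2 ratio 0.39, interval -0.22 to 1.04, alternatives -0.23 to 0.97) and the output factor Hlf (0.43) were short of 2-fold, so the call held for some repressors and outputs and not for others. In the AT2 gate the log2 ratios were 0.70 for Per3, 1.05 for Nr1d1 and -1.04 for Npas2. The hour at which each mouse was killed is not given in the labels, and its part was not tested. Since 5 of 14 were called in 1 direction, RefSeq promoter windows of the clock genes (250 bases before to 50 after a start, GRCm38.p6) were searched for the E-box CACGTG and the D-box TTATGTAA on both strands, and 14 of 16 clock genes had 19 windows. An E-box was held by 7.15% of all 32851 windows and a D-box by 0.938%. Of the 6 windows of the 5 higher genes, 2 held an E-box, both of Tef, beside 4 of the 13 other clock gene windows. Of the same 6, 1 held D-boxes, that of Per3, where the letters occurred 2 times, beside 0 of the others. Per3 (chr4:151044616-151044915, minus strand) and the second Tef window (chr15:81811164-81811463, plus strand) are shown because they hold these letters, in capitals.
Per3: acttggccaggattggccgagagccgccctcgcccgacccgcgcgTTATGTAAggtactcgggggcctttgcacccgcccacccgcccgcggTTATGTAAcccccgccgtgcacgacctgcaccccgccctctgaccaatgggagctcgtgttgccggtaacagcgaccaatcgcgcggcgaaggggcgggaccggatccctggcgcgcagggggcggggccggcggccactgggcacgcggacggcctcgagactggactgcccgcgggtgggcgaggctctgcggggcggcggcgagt
Tef: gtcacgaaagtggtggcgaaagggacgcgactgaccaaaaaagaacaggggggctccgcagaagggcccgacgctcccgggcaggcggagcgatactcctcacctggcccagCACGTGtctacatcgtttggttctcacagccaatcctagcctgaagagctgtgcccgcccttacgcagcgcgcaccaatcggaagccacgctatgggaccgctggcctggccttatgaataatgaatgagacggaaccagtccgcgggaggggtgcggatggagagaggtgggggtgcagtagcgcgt

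Glul, glutamine synthetase, rose from 140 to 490 CPM (log2 ratio 1.81, interval 1.60 to 2.03). It was found in 34.4% and 70.9% of members, with 19.4% and 54.9% after thinning and 52.2% and 81% of unthinned AT2 cells. Txnip, a thioredoxin inhibitor that follows glucose, rose from 200 to 654 CPM (log2 ratio 1.71, interval 1.53 to 1.89), and Cdo1, cysteine dioxygenase, from 26 to 145 UMIs (log2 ratio 1.98, interval 1.40 to 2.67, alternatives 1.32 to 2.12). The log2 ratio of Glul was 1.16 and that of Txnip 1.21 in other stromal cells, so neither rise was limited to members. Retinoid genes had 1 higher and 0 lower by at least 2-fold of 7 considered, median 0.32 (alternatives 1 higher, 0 lower, median 0.11 to 0.37), the higher gene being Aldh1a1, which makes retinoic acid (49.3 and 146 CPM, log2 ratio 1.56, interval 1.20 to 1.94). Hypoxia-responsive genes had 2 higher and 0 lower by at least 2-fold of 7 considered, median 0.15 (alternatives 1 to 2 higher, 0 to 1 lower, median 0.09 to 0.38), with Bnip3, a mitochondrial death protein, at 59 and 187 UMIs (log2 ratio 1.18, interval 0.76 to 1.64), and Ndrg1, a stress-responsive differentiation gene, at 19 and 55 UMIs (log2 ratio 1.04, interval 0.29 to 1.90, alternatives 0.83 to 1.76). Hspa1b, a heat shock gene, rose from 20 to 94 UMIs (log2 ratio 1.73, interval 1.05 to 2.54, alternatives 1.42 to 2.32) and fell in other stromal cells (-0.49). Histone genes had 1 higher and 0 lower by at least 2-fold of 6 considered, median 0.35 (alternatives 1 to 2 higher, 0 lower, median 0.30 to 0.52), with the linker histone Hist1h1c at 30 and 128 UMIs (log2 ratio 1.60, interval 1.04 to 2.25). Cldn1, a tight junction protein, rose from 32 to 141 UMIs (log2 ratio 1.65, interval 1.10 to 2.27, alternatives 0.49 to 2.12) and stood at 0.49 with no exclusion gene allowed in members.

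Among the lowest genes of CKO members, Dlk1, a Notch-like protein that holds back differentiation, fell from 126 to 24.2 CPM (log2 ratio -2.38, interval -2.85 to -1.95, alternatives -3.55 to -2.18). It was found in 14% and 3.3% of members, with 10.5% and 1.76% after thinning and 10.4% and 10.2% of unthinned AT2 cells. The share of CKO members lay below that of AT2 cells at unlike depth, since AT2 cells in CKO had a median of 6217 UMIs. Which members made the RNA was not tested. The log2 ratio of Dlk1 was -2.26 in the Adh7, Bdkrb1 and C1qtnf3 type and -0.92 in other stromal cells. Alad, an enzyme of haem synthesis, fell from 179 to 71 UMIs (log2 ratio -1.80, interval -2.22 to -1.40), and stood at -1.17 with at least 5 markers and at -0.43 with no exclusion gene allowed in members. Foxs1, a forkhead factor, fell from 109 to 57 UMIs (log2 ratio -1.40, interval -1.90 to -0.93), and Enpp2, which makes lysophosphatidic acid, from 87 to 52 UMIs (log2 ratio -1.21, interval -1.74 to -0.70, alternatives -2.08 to -0.84). The mitochondrial iron-sulfur protein gene Cisd1 had a log2 ratio of -1.12, interval -1.69 to -0.58. The mesenchyme transcription factors had 0 higher and 0 lower by at least 2-fold of 19 considered, median 0.20 (alternatives 0 higher, 0 lower, median 0.10 to 0.27), with Tcf21, a factor of lung fibroblasts, at 441 and 506 CPM (log2 ratio 0.20, interval 0.06 to 0.34). Surface and progenitor genes of the adventitia had 0 higher and 0 lower by at least 2-fold of 12 considered, median 0.10 (alternatives 0 to 1 higher, 0 to 1 lower, median -0.16 to 0.22).

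Markers of alveolar fibroblasts had a raised median in CKO members. The list had 4 higher and 0 lower by at least 2-fold of 9 considered, median 0.93 (alternatives 1 to 6 higher, 0 lower, median 0.59 to 1.19), where 2.35% of all genes considered were called higher. Without clusters 3, 7 and 8 it had 2 higher of 6 and a median of 0.59, and with no exclusion gene allowed 1 higher of 6 and 0.67. Inmt, a methyltransferase, rose from 214 to 492 CPM (log2 ratio 1.20, interval 1.02 to 1.38, alternatives 0.95 to 1.59) and Npnt, an integrin ligand, from 284 to 481 CPM (log2 ratio 0.76, interval 0.60 to 0.92, alternatives 0.43 to 1.15). Scube2, a secreted Hedgehog carrier, rose from 86 to 327 UMIs (log2 ratio 1.45, interval 1.11 to 1.81, alternatives 0.68 to 2.08), stood at 2.08 without clusters 3, 7 and 8 and at 0.68 with no exclusion gene allowed. The list summed to 1525 and 2504 CPM in members, to 1536 and 3878 CPM in other stromal cells and to 512 and 918 CPM in AT2 cells. Its summed level rose in all 3, and the part of free RNA in the members' rise was not tested. The alveolar fibroblast gate itself (at least 3 UMIs of Npnt, a UMI of Scube2 and under 3 of Dcn) held 528 control and 1761 CKO cells. Smooth muscle contractile genes had 0 higher and 0 lower by at least 2-fold of 9 considered, median 0.40 (alternatives 0 to 2 higher, 0 to 1 lower, median -0.32 to 0.51), beside 0.05 over all genes, and the list's median was -0.32 with no exclusion gene allowed in members. Acta2, smooth muscle actin, was at 545 and 546 CPM (log2 ratio 0.00, interval -0.13 to 0.13, alternatives -0.77 to 0.51), Myh11, smooth muscle myosin, at 65.8 and 87 CPM (log2 ratio 0.40, interval 0.05 to 0.76, alternatives -0.32 to 1.62), and Tagln, an actin-binding protein, at 443 and 612 CPM (log2 ratio 0.47, interval 0.33 to 0.60, alternatives 0.02 to 1.01). Myofibroblast markers had 1 higher and 1 lower by at least 2-fold of 8 considered, median 0.48 (alternatives 0 to 2 higher, 0 to 1 lower, median 0.25 to 0.63), with the cadherin gene Cdh4 at 12 and 43 UMIs (log2 ratio 1.33, interval 0.42 to 2.43, alternatives 0.76 to 2.27) and Hhip as the lower gene. Lyz2 among the immune markers rose from 568 to 1234 CPM (log2 ratio 1.12, interval 1.01 to 1.23, alternatives 0.41 to 1.97), and its log2 ratio was 0.41 without clusters 3, 7 and 8.

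**Figure D3:**
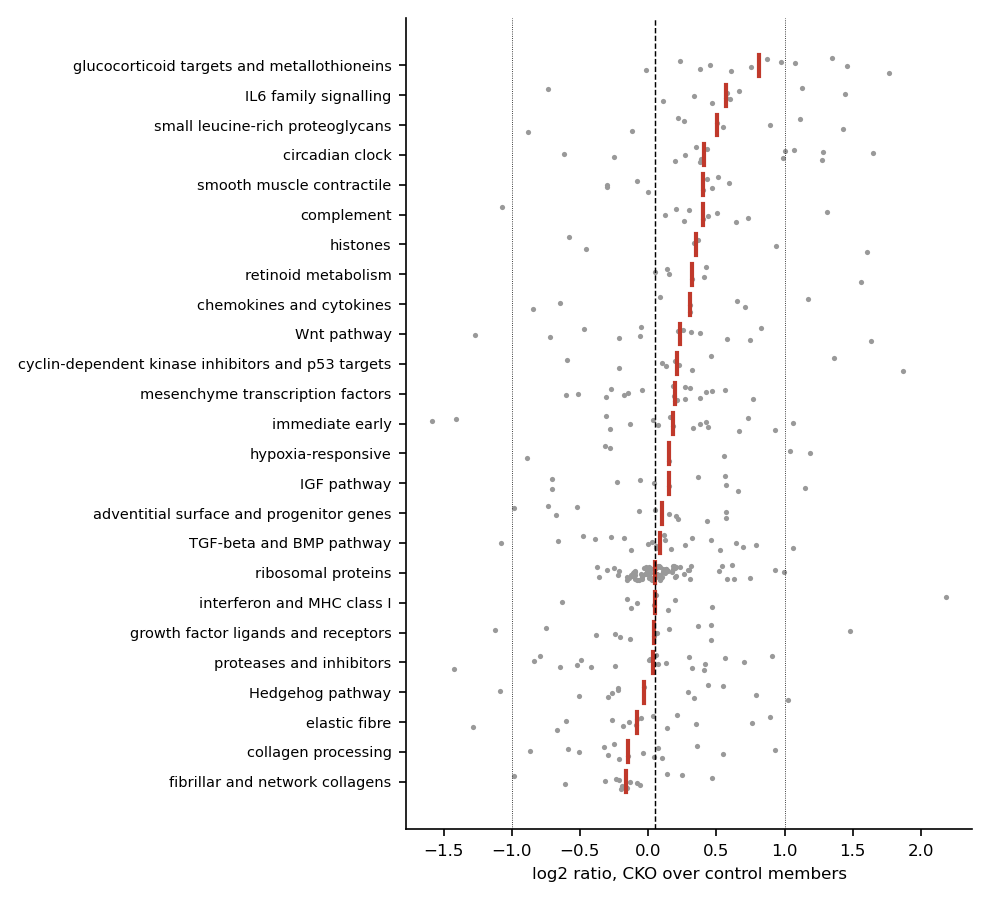
Log2 ratio of CKO over control members for the genes of each pathway list (grey), with the list median (red bar) and the median of all genes considered (dashed line). Dotted lines mark 2-fold.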

How the data were processed

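Raw UMI counts per gene and cell of 2 libraries, each from 1 mouse, were read as deposited. Per the file headers the counts came from Cell Ranger 6.1.0, while the submitters' notes give 3.1.0, and the reference was mm10. The libraries held 43291709 UMIs in 10999 control cells and 52338969 UMIs in 12350 CKO cells, and median depths were 3531 and 3720 UMIs per cell. Cells were left out below 200 or above 6000 genes or above 10% mitochondrial UMIs, and stromal cells had no UMI of Epcam or Ptprc. UMIs of all members of a library were summed, 1581142 in control and 2194201 in CKO, and scaled to UMIs per 1000000 (CPM). Log2 ratios had 0.5 UMI added to each sum. Intervals are exact 95% binomial intervals and cover counting error, not differences between mice. Those of log2 ratios were taken on UMIs summed over cells and leave out the spread between cells too. Genes considered had at least 50 UMIs over both libraries and a UMI in at least 5% of members of either, and were called at 2-fold. The authors' tests over cells (MAST) and their pathway tool were not used, because cells of 1 mouse are not replicates. No doublet caller and no correction for free RNA was run.

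Genes named in the report were those of the rule and of 27 pathway and 12 marker lists, and genes that the study names in its single-cell text. Added to these were the 15 highest and 15 lowest log2 ratios among genes with at least 100 UMIs, the 15 genes most raised over other stromal cells, the 10 most abundant and up to 3 leading genes of each cluster. Members and lists were chosen with earlier results of these data known. Members were clustered with 1000 variable genes outside the rule, 15 principal components, 15 neighbours and Leiden resolution 0.5. Alternatives changed the rule's minimums, the cells kept, the scaling, the depth, the gene filter and the fold. The summing and interval steps were tested on simulated data. Clusters came from scanpy 1.11.5 with leidenalg 0.10.2, igraph 0.11.9 and scikit-learn 1.9.0, intervals from scipy 1.17.1, sums from numpy 2.4.6 and pandas 2.3.3 and figures from matplotlib 3.10.9, all under Python 3.11.15, with gene positions from GENCODE M21.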

Additional observations from a re-analysis of the deposited data

How the results depend on the processing

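Every alternative settled on at the start was run, and leaving out clusters 3, 7 and 8 was chosen after seeing the data. Of 4404 alternative values for 367 named genes, 3988 stayed within the counting interval of the reported value, 416 left it and 0 of the called ones changed sign. Of 63 called named genes, 28 were past 2-fold under each of 12 alternatives and 35 fell short under at least 1. Among the 12 was a mitochondrial maximum of 5%, which left out no member and so could move no gene. Hhip ranged from -1.51 to -0.84, Ptch1 from 0.88 to 1.19 and Cdkn1a from 1.81 to 2.05. More than 1.5-fold apart from their reported ratio were 53 named genes with no exclusion gene allowed, 20 without the clusters, 16 after thinning, 9 without the 5% of members with the most UMIs, 8 with at least 5 Dcn UMIs, 7 with at least 5 markers, and 4 each with 1 Dcn UMI and with the mean over cells. Thinned, Ces1d was at 0.25. Shares of members in control and CKO were 5.91% and 7.25% with 1 Dcn UMI, 3.83% and 5.46% with 5, 4.16% and 5.55% with 5 markers, 1.77% and 3.04% with no exclusion gene and 3.53% and 4.72% without the clusters. Genes higher and lower in CKO, 187 and 69 of 7966 (2.35% and 0.866%) as reported, were 110 and 43 of 4621 with no exclusion gene and 104 and 29 of 4755 after thinning, where fewer UMIs were counted. Of these, 58 higher and 9 lower genes were among those reported with no exclusion gene, where 1 gene reported as higher lay below 0, and 58 and 11 after thinning. The counts were 51 and 7 of 2995 at 200 UMIs and 2347 and 1909 of 16434 with no minimum, 122 of 8443 were lower at 20 UMIs, and of the same 7966 genes 747 and 417 passed 1.5-fold and 28 and 12 had the whole interval past 2-fold. Of the genes of the pathway lists, 30 were higher and 11 lower of 300 considered as reported. The number considered changed with the filter. Higher and lower were 18 and 12 of 250 with no exclusion gene, and 15 and 5 of 210 at 200 UMIs. With no minimum they were 47 and 38 of 384. Of 300 there were 61 and 35 at 1.5-fold and 10 and 5 by the interval. The thinned share with Pi16 in control and CKO was 31.0% and 38.8% with no exclusion gene. Without the clusters it was 29.3% and 45.0%. Other than through the filters, the cause was not tested. No paired analysis was possible because each group had 1 mouse. Depth limits genes of low abundance: at 50 UMIs the counting interval of a 2-fold ratio is wide, and shares of cells fall with thinning. Differences between mice, the effect of tamoxifen itself and the sex of the mice cannot be told apart from the deletion.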
